A study of Mus musculus with 29 samples.

Results

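The 6 genes described here, Afp, H19, Igf2, Gpc3, Dlk1 and Peg3, are active in the fetal liver, and most of them fall silent or low after birth. They were taken by name from a list of fetal liver genes and asked for re-expression after bile duct ligation, out of 22180 genes named on the arrays. The study measured liver RNA of male C57BL/6N mice, all marked wt (wild type) in their titles, aged 8 to 10 weeks and on a standard diet, on 29 Affymetrix arrays, each with its own animal number. Ligation of the common bile duct (BDL) stops bile flow and gives cholestasis. The ligated groups were BDL day 1, BDL day 3, BDL day 7 and BDL day 21, with 5 livers each. The control livers came from sham-operated mice, 3 at day 1, 2 at day 3 and 4 at day 7. No sham group of day 21 is labelled, so BDL day 21 was set against sham day 7, and there ligation cannot be told apart from time since surgery.

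Afp encodes alpha-fetoprotein, the albumin-like plasma protein of the fetus, which hepatocytes stop making after birth and which can return in regenerating liver and liver cancer. Igf2 encodes a fetal growth factor, and H19 is a long noncoding RNA beside it on the chromosome that is expressed from the other parental copy. Gpc3 is a heparan sulfate proteoglycan of the cell surface, Dlk1 is a membrane protein of hepatoblasts related to the Notch ligands, and Peg3 is an imprinted zinc finger protein. H19, Igf2, Dlk1 and Peg3 are imprinted, that is, expressed from 1 parental copy.

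By RefSeq positions on GRCm38.p6, Afp lies at chr5:90490714-90508907, H19 at chr7:142575530-142578146, Igf2 at chr7:142650768-142666816 and Peg3 at chr7:6703892-6730462. Gpc3 lies at chrX:52272426-52613974 and Dlk1 at chr12:109452485-109463336. H19 holds the hairpin of the microRNA gene Mir675, and Igf2 holds that of Mir483. The mature microRNAs are printed because the H19 probes on this array share their row with Mir675 and because a Mir483 row lies inside Igf2. Capitals mark the seed, bases 2 to 8, and the 4 seeds differ from each other (RefSeq, GRCm38.p6).
miR-675-5p: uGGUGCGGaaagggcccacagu
miR-675-3p: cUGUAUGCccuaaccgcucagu
miR-483-5p: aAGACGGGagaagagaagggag
miR-483-3p: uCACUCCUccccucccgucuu

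The promoter of Afp is printed because Afp is the member that rose after ligation. The window runs from 250 bases before to 50 bases after the RefSeq start, chr5:90490464-90490763 on the plus strand. Capitals mark 2 half-sites of the hepatocyte factor HNF1, gttaat and gttaac, and the TATA box tataaa, searched on both strands. Of 32851 RefSeq promoter windows of this length, 7.1% hold gttaat, 3.05% hold gttaac and 13.6% hold tataaa, and the 3 matches in Afp do not overlap.
Afp promoter: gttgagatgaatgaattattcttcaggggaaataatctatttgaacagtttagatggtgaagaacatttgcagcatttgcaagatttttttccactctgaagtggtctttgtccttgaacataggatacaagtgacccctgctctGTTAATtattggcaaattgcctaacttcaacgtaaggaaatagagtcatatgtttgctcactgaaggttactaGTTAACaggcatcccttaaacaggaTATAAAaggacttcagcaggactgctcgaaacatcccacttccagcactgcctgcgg

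The promoter of Peg3 is printed beside it because Peg3 is the member with the largest difference between groups. Its window is chr7:6730370-6730669 on the minus strand. Capitals mark the dinucleotide CG, at which mammalian DNA is methylated. The window holds 13 CG, against 3 in the Afp window and a median of 7 over the same 32851 windows.
Peg3 promoter: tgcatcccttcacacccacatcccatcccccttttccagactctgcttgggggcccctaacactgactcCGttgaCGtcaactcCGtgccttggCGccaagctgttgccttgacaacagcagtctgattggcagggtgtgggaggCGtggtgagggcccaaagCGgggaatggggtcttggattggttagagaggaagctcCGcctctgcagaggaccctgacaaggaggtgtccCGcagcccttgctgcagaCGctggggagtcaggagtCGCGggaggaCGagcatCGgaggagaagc

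Values are deposited log2 expression values, and the median over all rows of an array lay between 4.90 and 5.13, so a value of 5 sits near the middle of each array. The 3 genes whose group means stayed under log2 5 in all 7 groups were H19, Gpc3 and Dlk1. The H19 row exceeded 5 in 2 of 29 arrays, Gpc3 in 4 and Dlk1 in 4. Group means of Afp, Igf2 and Peg3 were above 5 in all 7 groups. Afp exceeded 5 in 27 of 29 arrays and Igf2 in 25, with highest values of 6.22 and 5.71, while Peg3 did so in all 29. A gene was tested if it exceeded 5 in at least 3 arrays, which 14699 genes and 5 of the 6 members did. H19 has no row of its own and was read from a fit over all 25335 annotated rows. In bulk liver, fewer cells of a type and less RNA per cell cannot be told apart.

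**Figure D1:**
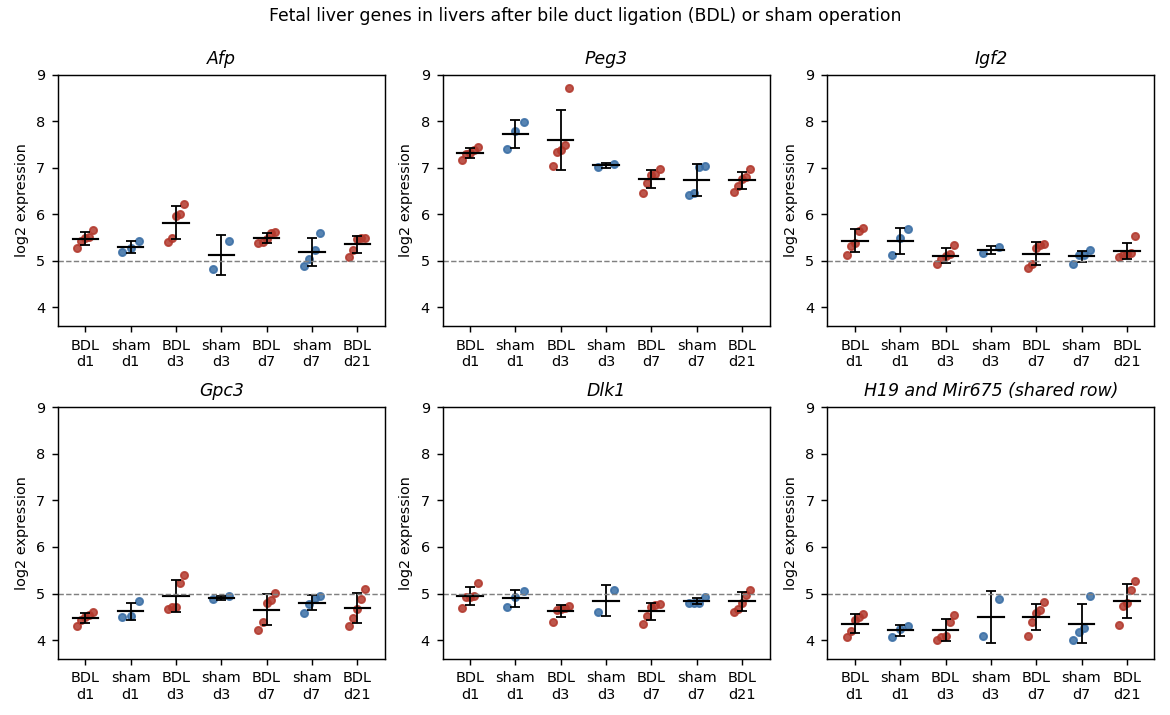
Deposited log2 expression (y axis) of the 6 genes in each liver, by group (x axis; d is the day, red BDL, blue sham), with the group mean and SD as black bars and log2 5 as a dashed line. Peg3 lies between 6.41 and 8.72 and is high on early days, Afp peaks in BDL day 3 livers at 6.22, and most H19, Gpc3 and Dlk1 points lie under the line.

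The liver label held: the mean of 10 hepatocyte markers, Alb among them, lay between 11.87 and 12.28 in all arrays. Pairs of arrays correlated between 0.95 and 0.99 over genes. Of the day 1 arrays, 4 stand apart: sham replicates 1 and 3 and BDL replicates 2 and 3. Over tested genes their values had an SD between 1.55 and 1.58, and the remaining arrays one between 1.64 and 1.70. Small nucleolar RNA genes averaged 8.83 to 9.28 in them, against 7.59 to 8.37 elsewhere. The day 1 comparisons of the 5 tested members with sham are therefore given with and without these 4 arrays. Leaving them out keeps sham day 1 replicate 2 as the only control, so those values are given as effect sizes alone. Other values that use day 1 include them unless stated.

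Afp was the single member that rose against sham of the same day, and it did so at day 3 by a modest amount. In BDL day 3 livers Afp had log2 values of 5.49, 5.41, 5.97, 6.01 and 6.22, against 5.42 and 4.81 in sham day 3 livers. Of the 5 ligated livers 4 lay above both shams, and the lowest one lay just under the higher sham, so the groups overlapped slightly. The mean was 5.82 ± 0.35 in BDL livers and 5.12 ± 0.43 in sham livers (SD, n = 5 and 2). The log2 fold change was 0.70 ± 0.19 (SE; 95% interval 0.30 to 1.10), or 1.62-fold, with a limma adjusted p of 0.0179. This is 1 of the 5 members tested, where 6.47% of all tested genes were called higher and 10.2% in either direction. The call rests on sham day 3 replicate 2. Without it the fold change was 0.39 with an adjusted p of 0.415, and with only the arrays of these 2 groups in the fit it was 0.70 with an adjusted p of 0.135.

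On the other days Afp did not pass the test. At day 1 it had 5.28, 5.41, 5.65, 5.51 and 5.49 in BDL livers, against 5.27, 5.18 and 5.43 in sham livers, and the groups overlapped. At day 7 it had 5.58, 5.61, 5.40, 5.39 and 5.46 in BDL livers, against 4.89, 5.03, 5.59 and 5.23 in sham livers, where 1 sham liver reached the level of the highest ligated ones. BDL day 21 livers had 5.49, 5.09, 5.22, 5.49 and 5.48. The log2 fold changes were 0.18 at day 1 (95% interval -0.17 to 0.52, adjusted p = 0.559) and 0.30 at day 7 (-0.02 to 0.62, adjusted p = 0.191). At day 21 against sham day 7 the fold change was 0.17 (-0.15 to 0.48, adjusted p = 0.484). Without the 4 day 1 arrays that stand apart, the day 1 fold change against the only sham liver left was 0.25.

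All 4 BDL group means of Afp were above all 3 sham group means, in the order BDL day 3, BDL day 7, BDL day 1, BDL day 21, sham day 1, sham day 7 and sham day 3. The step from BDL day 3 down to BDL day 7, 0.33, was the only one between neighbours above the within-group SD of 0.24. Between BDL days, Afp did not pass the test from day 1 to day 3 (log2 fold change 0.35, adjusted p = 0.096) or from day 3 to day 7 (-0.33, adjusted p = 0.199). An F-test over all 7 groups called Afp (adjusted p = 0.0128), as it did 51.6% of tested genes.

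Other cell types moved on the same day as Afp. Of 9 tested markers of cholangiocytes and progenitors, the bile duct cells and the cells that can give rise to them, 7 rose at day 3, led by Cd24a, Muc1, Sox9 and Epcam. Their mean level was 6.11 to 6.49 in BDL day 3 livers and 5.18 to 5.19 in sham day 3 livers. Of 10 cell cycle genes, 7 rose, with mean levels of 6.06 to 7.41 in BDL day 3 livers and 5.65 to 5.69 in sham day 3 livers. None of 3 tested markers of erythroid cells, which fill the fetal liver, passed the limma test against sham at any day (at an unadjusted p under 0.05, 1 at day 1, Klf1, which was lower, and 0 at the other days), and their level was 6.03 to 6.28 in BDL day 3 livers and 5.95 to 6.21 in sham day 3 livers. The part of these cells in the Afp result was not tested. The BDL day 3 liver with the highest Afp, replicate 5 at 6.22, had the lowest cell cycle level of its group, 6.06, and the lowest cholangiocyte level, 6.11. At day 7 all 9 cholangiocyte and all 10 cell cycle genes rose. Of all tested genes 6.47% were called higher at day 3 and 14.2% at day 7. The shares called in either direction were 13.3%, 10.2%, 19.2% and 25.2% at days 1, 3, 7 and 21. Afp had a log2 fold change of 0.30 at day 7 that did not pass the test, which does not show that it stayed unchanged. Replicate 5 of day 3 is 1 liver, and the part of these cells was not tested at either day.

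Among 12 tested regulators of Afp, none rose and Cebpa fell at each day, where 4.8%, 3.69%, 4.97% and 7.9% of tested genes were called lower at days 1, 3, 7 and 21. Zhx2, Zbtb20 and Zfhx3 are repressors that keep Afp off in the adult liver, and none passed the test against sham at any day. Zhx2 averaged 7.91 in BDL day 3 livers and 7.92 in sham day 3 livers (log2 fold change -0.00, 95% interval -0.41 to 0.41). Zfhx3 averaged 7.46 in BDL day 3 livers and 7.68 in sham day 3 livers (-0.22, adjusted p = 0.303). Zbtb20 averaged 9.58 in BDL day 3 livers and 9.28 in sham day 3 livers (0.30, adjusted p = 0.314). Between ligated groups, Zfhx3 was lower at day 3 than at day 1 (-0.49, adjusted p = 0.000806) and higher at day 7 than at day 3 (0.33, adjusted p = 0.0342). Afp was not called in either of these comparisons. Cebpa, a liver-enriched factor that activates hepatocyte genes, fell by 1.17 on the log2 scale at day 1, by 1.00 at day 3, by 0.58 at day 7 and by 0.69 at day 21, with adjusted p values of 1.68e-06, 0.00014, 0.0016 and 0.000162. Foxa2 fell at day 7 (-0.51, adjusted p = 0.0128) and Nr5a2 at day 21 (-0.29, adjusted p = 0.0353).

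Of the neighbours of Afp in the albumin gene family, Afm fell and Alb was not called. Alb, the adult counterpart of Afp, averaged 14.13 in BDL day 3 livers and 14.11 in sham day 3 livers, and its log2 fold change was 0.02 to 0.07 over the 4 comparisons, none called. Afm, which encodes the vitamin E-binding protein afamin, fell at each day, by 1.06 at day 1, by 1.13 at day 3, by 0.82 at day 7 and by 1.29 at day 21, with adjusted p between 0.000102 and 0.0112.

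By its row of highest mean, Peg3 was above log2 5 in all 29 arrays, those of sham livers included. That row did not read low in these adult livers, while a further row, shared with the antisense gene Peg3os, averaged 4.17. Values of Peg3 below are those of its row of highest mean. No comparison with sham called Peg3, while some comparisons between days did. At day 1 it had 7.30, 7.37, 7.45, 7.31 and 7.17 in BDL livers, against 7.40, 7.80 and 7.98 in sham livers. At day 3 it had 7.48, 7.04, 7.37, 7.35 and 8.72 in BDL livers, against 7.02 and 7.09 in sham livers. BDL day 3 replicate 5 stood alone at 8.72, and the groups overlapped at both days. At day 7 it had 6.66, 6.46, 6.84, 6.96 and 6.85 in BDL livers, against 7.02, 7.04, 6.41 and 6.46 in sham livers. BDL day 21 livers had 6.76, 6.98, 6.79, 6.48 and 6.61. The ligated values of days 7 and 21 lay inside the range of the day 7 shams, and below every ligated value of days 1 and 3.

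The log2 fold change was -0.41 ± 0.23 at day 1 (adjusted p = 0.279) and 0.54 ± 0.27 at day 3 (adjusted p = 0.224). At day 7 it was 0.02 ± 0.21 (95% interval -0.41 to 0.46, adjusted p = 0.963), and at day 21 -0.01 ± 0.21 (-0.45 to 0.43, adjusted p = 0.98). Without the 4 day 1 arrays that stand apart, the day 1 value against the only sham liver left was -0.54. The day 3 value without BDL day 3 replicate 5 was 0.26. The effect at day 7 minus that at day 1 was 0.43 (-0.22 to 1.07) and was not called.

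Between days, Peg3 was lower in ligated livers of day 7 than in those of day 3. BDL day 7 livers averaged 6.76 ± 0.20 and BDL day 3 livers 7.59 ± 0.65 (SD, n = 5 each), a log2 fold change of -0.84 ± 0.20 with an adjusted p of 0.011. The groups did not overlap, as for 1.78% of tested genes that were lower without overlap. Of all tested genes 1.1% were called lower, and Peg3 was the single member called. Without BDL day 3 replicate 5 the fold change was -0.56 with an adjusted p of 0.0269, and the call stood in 11 of 11 settings. These settings left out each array in turn or took the 4 day 1 arrays as a term, which cannot move a difference between days 3 and 7. BDL day 7 against BDL day 1 gave -0.56 (adjusted p = 0.0331) and BDL day 21 against BDL day 1 gave -0.60 (adjusted p = 0.0244), 2 comparisons added after the values had been seen. In them 9.69% and 10.3% of tested genes were called lower, and Peg3 did not overlap between the groups, as for 4.67% and 5.37% of tested genes that were lower. With the 4 day 1 arrays as a term of the model the adjusted p values were 0.0904 and 0.0688. The calls were made in 5 of 11 and 7 of 11 settings. Leaving out 1 array at a time gave adjusted p of up to 0.0787 for day 7, without BDL day 7 replicate 2, and up to 0.0659 for day 21, without BDL day 21 replicate 4.

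Among sham livers, Peg3 was higher at day 1 than at day 7. It averaged 7.73 ± 0.30 in sham day 1 livers and 6.73 ± 0.35 in sham day 7 livers (SD, n = 3 and 4). The log2 fold change was 0.99 ± 0.24 (95% interval 0.49 to 1.49), or 1.99-fold, with an adjusted p of 0.0278. The groups did not overlap, as for 4.84% of tested genes that were higher, and 1.15% were called higher. The call was made in 3 of 8 settings: with the array set as a term the fold change was 0.95 with an adjusted p of 0.316. It was lost without sham day 7 replicate 3 (0.88, adjusted p = 0.0754) or 4 (0.90, adjusted p = 0.0601) and without sham day 1 replicate 1 (1.15, adjusted p = 0.0686) or 3 (0.86, adjusted p = 0.216). Sham day 3 livers did not pass the test against sham day 7 livers (0.32, 95% interval -0.25 to 0.88), a comparison in which limma called 0 of the tested genes (0%) and no member had an unadjusted p under 0.05.

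The group means of Peg3 ran, from high to low, sham day 1, BDL day 3, BDL day 1, sham day 3, BDL day 7, sham day 7 and BDL day 21. No step between neighbours exceeded the within-group SD of 0.34. The range of its group means, 1.00, was larger than that of 86.1% of tested genes, and the F-test over all groups called it (adjusted p = 0.000455). The range was 0.70 for Afp, 0.47 for Gpc3, 0.33 for Igf2 and 0.33 for Dlk1, where the median of all tested genes was 0.498. The row shared by Peg3 and its antisense gene Peg3os stayed under 5 in all 29 arrays and was not called against sham at any day.

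**Figure D2:**
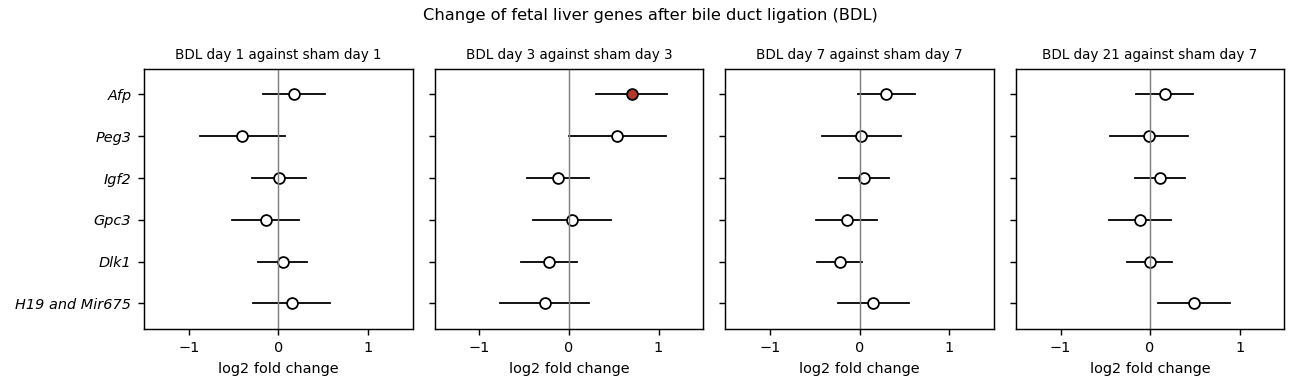
Log2 fold change (x axis) of each gene (rows) in BDL against sham livers, with 95% intervals as lines; a filled point has an adjusted p under 0.05. Afp at day 3, 0.70, is the single filled point, and the intervals of Igf2, Gpc3 and Dlk1 include 0 at each day.

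Igf2, the fetal growth factor, stayed just above log2 5 and did not differ detectably between BDL and sham livers. It had 5.39, 5.31, 5.71, 5.12 and 5.63 in BDL day 1 livers, against 5.68, 5.11 and 5.48 in sham day 1 livers. It had 5.03, 5.35, 5.14, 4.92 and 5.10 in BDL day 3 livers, against 5.17 and 5.28 in sham day 3 livers. It had 5.34, 5.26, 4.84, 5.36 and 4.94 in BDL day 7 livers, against 5.23, 5.11, 4.94 and 5.12 in sham day 7 livers. The groups overlapped at each day. BDL day 21 livers had 5.17, 5.08, 5.13, 5.14 and 5.53, of which 4 lay in the sham day 7 range. The log2 fold changes for days 1, 3, 7 and 21 were 0.01, -0.12, 0.05 and 0.11, with adjusted p between 0.606 and 0.983. Their 95% intervals, -0.29 to 0.31, -0.46 to 0.23, -0.23 to 0.33 and -0.17 to 0.39, all included 0. Without the 4 day 1 arrays the day 1 value against the only sham liver left was 0.27.

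A row of Mir483, whose hairpin lies inside Igf2, read between 6.94 and 8.19, and no comparison of BDL with sham called it. It was lower in BDL day 3 livers than in BDL day 1 livers, with means of 7.53 in BDL day 3 livers and 7.97 in BDL day 1 livers, a log2 fold change of -0.44 and an adjusted p of 0.0297. Probes of such a row can also read the host transcript, so the row is not a measure of the mature microRNA. The row of Igf2os, the antisense gene of Igf2, stayed under 5 in all 29 arrays.

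The H19 row, shared with Mir675, was under log2 5 in 27 of 29 arrays. It had 4.19, 4.44, 4.57, 4.07 and 4.50 in BDL day 1 livers, against 4.24, 4.07 and 4.31 in sham day 1 livers. It had 4.07, 4.55, 4.08, 4.39 and 4.01 in BDL day 3 livers, against 4.89 and 4.10 in sham day 3 livers. It had 4.08, 4.82, 4.65, 4.38 and 4.57 in BDL day 7 livers, against 4.96, 4.17, 4.25 and 4.01 in sham day 7 livers. Groups overlapped throughout, and the log2 fold changes of 0.15, -0.27 and 0.15 were not called (adjusted p = 0.786, 0.643 and 0.703). BDL day 21 livers had 5.08, 5.27, 4.72, 4.79 and 4.32, and 2 of them were the only arrays of the study above 5 for this row. Their log2 fold change against sham day 7 was 0.49 ± 0.19 (95% interval 0.09 to 0.89), with an adjusted p of 0.0909. In that fit 7.31%, 5.59%, 11.2% and 15.4% of the 25335 annotated rows were called for days 1, 3, 7 and 21. Leaving out sham day 7 replicate 1 brought the value to 0.69 with an adjusted p of 0.0131, and leaving out BDL day 21 replicate 5 to 0.62 with an adjusted p of 0.0307. Of 9 fits that each left out 1 array, only these 2 called the row. The values of the 9 fits ran from 0.38 to 0.69, with adjusted p of up to 0.279.

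Gpc3, the proteoglycan used as a marker of liver cancer, stayed under log2 5 on average in each group. It had 4.49, 4.44, 4.30, 4.53 and 4.60 in BDL day 1 livers, against 4.83, 4.49 and 4.52 in sham day 1 livers. It had 4.66, 4.72, 4.71, 5.22 and 5.40 in BDL day 3 livers, against 4.88 and 4.94 in sham day 3 livers. At day 3, replicates 4 and 5 exceeded both shams and the other 3 lay below them. It had 4.39, 5.02, 4.79, 4.21 and 4.85 in BDL day 7 livers, against 4.94, 4.76, 4.59 and 4.90 in sham day 7 livers. BDL day 21 livers had 4.29, 5.09, 4.89, 4.48 and 4.68. The groups overlapped, and the log2 fold changes of -0.14, 0.03, -0.14 and -0.11 for days 1, 3, 7 and 21 had adjusted p between 0.619 and 0.952. The widest of the 4 intervals was -0.40 to 0.46, at day 3. Without the 4 day 1 arrays that stand apart the day 1 value against the only sham liver left was 0.05.

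In ligated livers Gpc3 averaged 4.94 ± 0.34 at day 3 and 4.47 ± 0.11 at day 1 (SD, n = 5 each). This log2 fold change of 0.47 ± 0.16 had an adjusted p of 0.0387, the single member called higher where 12% of tested genes were. Gpc3 passed the filter through 4 arrays, all of ligated livers, BDL day 3 replicates 4 and 5 among them. In a fit with no filter the fold change was 0.47 with a limma adjusted p of 0.054, and Gpc3 was not called. The groups did not overlap, as for 6.55% of tested genes that were higher. Gpc3 was called in 5 of 11 settings, all of which kept the filter. The fold change was 0.45 with the 4 day 1 arrays as a term (adjusted p = 0.104). Endothelial markers, of which 8 of 8 rose in the same comparison, averaged 7.88 to 8.57 in BDL day 3 livers and 6.85 to 7.33 in BDL day 1 livers. Markers of other cells were called higher as well, 9 of 14 for stellate cells, 8 of 12 for macrophages, 7 of 10 for the cell cycle and 5 of 9 for cholangiocytes. The part of these cells in the result was not tested.

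Dlk1, the hepatoblast surface protein, also stayed under log2 5 on average in each group. It had 4.92, 4.93, 4.95, 4.68 and 5.23 in BDL day 1 livers, against 4.70, 4.92 and 5.06 in sham day 1 livers. It had 4.66, 4.68, 4.39, 4.64 and 4.73 in BDL day 3 livers, against 4.61 and 5.08 in sham day 3 livers. The groups overlapped on both days. It had 4.77, 4.51, 4.34, 4.74 and 4.71 in BDL day 7 livers, against 4.81, 4.81, 4.93 and 4.79 in sham day 7 livers, where each ligated liver lay below each sham liver. Among tested genes 5.9% were lower without overlap at day 7. BDL day 21 livers had 4.81, 4.98, 4.61, 5.08 and 4.67, around the sham day 7 values. The log2 fold changes were 0.05, -0.23, -0.22 and -0.00 for days 1, 3, 7 and 21, with adjusted p of 0.866, 0.417, 0.235 and 0.986. At day 7 the 95% interval was -0.47 to 0.03. Without the 4 day 1 arrays that stand apart the day 1 value against the only sham liver left was 0.02. BDL day 7 against BDL day 1 gave -0.33 (adjusted p = 0.0302), an added comparison that was called in 5 of 11 settings. These 2 groups overlapped, and 9.69% of tested genes were called lower between them.

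At days 1, 7 and 21, then, limma called 0 of the 5 tested members against sham, and 0 had an unadjusted p under 0.05. Of all tested genes 13.3%, 19.2% and 25.2% were called on these days. The H19 row is not among these 5 members. In the limma fit over all annotated rows its unadjusted p was 0.487 at day 1 and 0.436 at day 7. At day 21 that p was 0.0175, and the row was not called (adjusted p = 0.0909). For days 1, 3, 7 and 21 the median log2 fold changes of the 5 tested members were 0.01, 0.03, 0.02 and -0.00, beside medians of 0.02, 0.02, 0.03 and 0.02 over all tested genes. Limma also called 0 members in BDL day 21 against BDL day 7, where 0.864% of tested genes were called and no member had an unadjusted p under 0.05. The effect at day 7 minus that at day 1 was called for 0 members and for 4.33% of tested genes (adjusted p 0.488 to 0.998), again with no member at an unadjusted p under 0.05.

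Other fetal growth genes gave a like count. Of 11 genes in a list of fetal RNA-binding proteins and growth regulators, 7 were tested and 0 were called against sham at any of the 4 comparisons. With unadjusted p under 0.05, Lin28a was higher at day 3, Trim71 was lower at day 7, and Hmga2, Lin28a and Mycn were lower at day 21. Igf2bp3, which binds Igf2 messenger RNA, had log2 fold changes of 0.10, 0.30, 0.16 and -0.00 for days 1, 3, 7 and 21. Igf2bp1 and Igf2bp2 were not analysed here.

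Fetal enzyme isoforms behaved otherwise. This list holds sugar-handling genes that the fetal liver uses and the adult hepatocyte replaces, and of its 5 tested members 1, 1, 4 and 5 rose at days 1, 3, 7 and 21. On these days 8.52%, 6.47%, 14.2% and 17.3% of all tested genes were called higher. Pkm, the pyruvate kinase of non-hepatocytes and fetal liver, rose at each day, with log2 fold changes of 0.80, 1.13, 1.37 and 1.47 and adjusted p of 0.00534, 0.00103, 1.82e-06 and 3.04e-07. Slc2a1, a glucose transporter, rose by 0.88 at day 7 and by 1.01 at day 21. The hexokinases Hk2 and Hk1 rose by 0.81 and 0.59 at day 7, and Aldoc, an aldolase, by 0.33 at day 21. These genes are also active in macrophages and stromal cells. At day 21, 12 of 12 macrophage markers rose, with mean levels of 8.56 to 9.13 in BDL livers and 6.88 to 7.30 in sham day 7 livers. Of 14 stellate cell and myofibroblast markers 12 rose, with mean levels of 7.97 to 8.62 in BDL day 21 livers and 6.51 to 7.88 in sham day 7 livers. The part of these cells in the result was not tested.

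**Figure D3:**
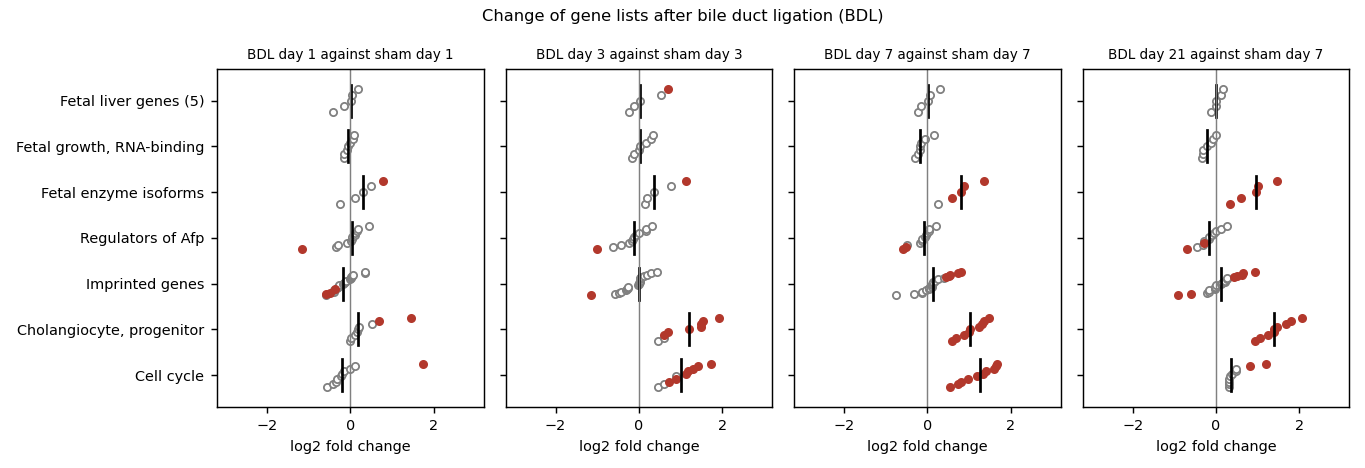
Log2 fold change (x axis) of each tested gene in 7 lists (rows) for BDL against sham livers; filled points have an adjusted p under 0.05 and the black bar is the list's median. The fetal liver genes centre on 0 in each panel, while the enzyme isoform and cholangiocyte lists lie to the right at days 7 and 21, with medians of 0.81 and 1.02 at day 7.

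Among 20 tested imprinted genes outside the 6, 0, 0, 5 and 5 rose against sham at days 1, 3, 7 and 21, and 3, 1, 0 and 2 fell. Over all tested genes the shares called higher were 8.52%, 6.47%, 14.2% and 17.3%, and those called lower 4.8%, 3.69%, 4.97% and 7.9%. Those that fell were Gatm, Slc22a18 and Slc38a4 at day 1, Rian at day 3, and Rian and Ppp1r9a at day 21. Mest, a fetal imprinted hydrolase, averaged 6.51 in BDL day 7 livers and 5.70 in sham day 7 livers (log2 fold change 0.81 ± 0.17, adjusted p = 0.000773). At day 21 its value was 0.27 (adjusted p = 0.268). Gatm, which makes the precursor of creatine, fell at day 1 (-0.57, adjusted p = 0.0381) and rose at day 7 (0.74, adjusted p = 0.00216). Dcn, the stromal proteoglycan decorin, rose by 0.52 at day 7 and by 0.93 at day 21. Plagl1 and Cdkn1c, 2 imprinted growth regulators, were not called against sham at any day (adjusted p between 0.224 and 0.968).

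The noncoding genes beside Dlk1 pointed down where they were called. Rian fell at day 3 (-1.14, adjusted p = 0.0348) and at day 21 (-0.92, adjusted p = 0.0156). The day 3 value rests on 2 sham livers, and Rian was not examined with single arrays left out. The row of Meg3 alone was not called against sham at any day. The row that Meg3 shares with Mir770 had 5.27, 5.70, 5.67, 5.30 and 5.43 in BDL day 3 livers, against 6.04 and 7.29 in sham day 3 livers. Both shams lay above all ligated livers, as for 11.3% of tested genes that were lower without overlap, and 1 sham lay far above. The log2 fold change was -1.19 ± 0.21 (adjusted p = 0.000546). In that fit 2.25% of annotated rows were called lower at day 3 and 5.36% at day 21. Without sham day 3 replicate 2, the array with the low Afp value, it was -0.57 with an adjusted p of 0.17. At day 21 the shared row fell by 0.58 (adjusted p = 0.016). Leaving out 1 array in turn kept this call in 8 of 9 fits, and it was lost without sham day 7 replicate 3 (-0.51, adjusted p = 0.0639).

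Receptors and binding proteins of the IGF axis changed although Igf2 did not pass the test. Igf2r, the receptor that clears IGF2, rose at day 7 (0.44 ± 0.13, adjusted p = 0.0139) and day 21 (0.43 ± 0.13, adjusted p = 0.0117). Igfbp1, a hepatocyte-made inhibitor of IGF action, rose at each day by 1.63 to 2.06, and Igfals, the subunit that holds IGFs in the circulation, fell at each day by 0.96 to 1.64. Of 14 tested genes of this list, 4 rose and 3 fell at day 7, where 14.2% and 4.97% of all tested genes did, and 4 rose and 4 fell at day 21, where 17.3% and 7.9% did. Igf1, the adult liver's IGF, was not called against sham at any day (log2 fold change -0.29 to 0.10).

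The families of Gpc3 and Dlk1 held members that rose and members that fell. On days 1, 3, 7 and 21, 8.52%, 6.47%, 14.2% and 17.3% of all tested genes were called higher. The shares called lower were 4.8%, 3.69%, 4.97% and 7.9%. Of 10 glypicans, syndecans and the glypican-releasing enzyme Notum, Sdc1, the syndecan of epithelia, rose at each day by 0.42 to 0.99. Sdc3 and Gpc6 rose at day 7 by 1.11 and 0.54, and Notum fell by 0.57. Of this list 1, 1, 3 and 3 genes rose at days 1, 3, 7 and 21, and 1, 0, 1 and 2 fell. Those that fell were Sdc2 at day 1, Notum at day 7, and Notum and Sdc4 at day 21. Gpc6 was the only glypican called against sham. Of 14 tested Notch receptors, ligands and targets, Notch2 rose at each day by 0.47 to 0.72, and Jag1, the ligand that directs bile duct formation, rose at day 7 by 0.79 and at day 21 by 1.22. Dll4 fell at day 1 (-0.58) and at day 7 (-0.42). Of the Notch list 2, 2, 4 and 4 genes rose at days 1, 3, 7 and 21, and 1, 0, 1 and 0 fell. Dlk2 was not called against sham at any day.

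Over the 29 arrays, Pearson's r between pairs of the 5 tested members ran from -0.38, for Igf2 and Gpc3, to 0.39, for Igf2 and Dlk1, as a description over arrays that share their groups. The genes most like Afp over these arrays were Map3k6 (r = 0.77), Haus7 (0.76) and Tmem87b (0.76). The most like Peg3 were Vmn1r36 (0.74), Serpina11 (0.72) and Camta2 (0.71), and the most like Igf2 was Pla2g3 (0.79). For Gpc3 and Dlk1 the highest values were 0.69, with Zfp939, and 0.70, with Bcl11b. Such values were picked as the highest of 14699.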

How the data were processed

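Liver RNA of 29 mice was measured on 1 array each. The authors deposited log2 values, made with oligo 1.52.0 and RMA (background correction, a shared distribution for all arrays, 1 value per row), per the submitters' processing notes. Differences of weak rows near background tend to be compressed by this. Mouse Genome 430 2.0 is the array type given, per the labels' protocols, with oligo dT labelling, while the row identifiers match the Mouse Gene 2.0 ST annotation, which gave the names. Which genome build the authors used is not stated in these sources, so positions are RefSeq's.

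Of 41345 rows, 25335 were annotated, 23521 with 1 symbol, 1814 with several, while 16010 have no name here. For 23328 rows the gene ID gave the current symbol. The row of highest mean was kept per gene, giving 22180 genes, of which 14699 exceeded log2 5 in at least 3 arrays and were tested. H19 is named in a row with 2 symbols alone and was read from an added fit over all annotated rows. RefSeq promoter windows were found for 5 of the 6 members.

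Each array was put in a group by its labelled surgery and day. Since every title has its own animal number, p-values reflect how these animals differ. Replicates were numbered in accession order. A model with 1 mean per group over all 29 arrays was fitted (limma 3.58.1, lmFit and eBayes; R 4.3.3), with two-sided Benjamini-Hochberg adjusted p over all tested genes, threshold 0.05, and 95% intervals. Fold changes are first-named minus second group. The number of arrays limits precision. The fit was tested on simulated data.

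The members and lists were chosen with earlier results of these data known, and lists are described by counts alone. Named were the 6 members, a set of regulators and imprinted genes, up to 4 called genes of largest change per list and comparison, and the most correlated genes. Markers of the mesothelium (6 tested) and exocrine pancreas (1 tested) were not called against sham at any day. For BDL against sham, alternatives changed the filter, row choice, scaling, arrays in the fit, controls and variance model, and left out each array in turn. For comparisons between days, the counted settings left out each array in turn or took the 4 day 1 arrays as a term.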

Additional observations from a re-analysis of the deposited data

Results flagged for a closer look

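The 7 rows of the 6 members, the row shared by Peg3 and Peg3os included, were checked in the 5 groups of 4 or 5 arrays for an array far from the rest. Of these 35 checks 4 found one, and chance gives about 1 in 20. Peg3 in BDL day 3 replicate 5 was far above the other BDL day 3 livers, at a log2 value of 8.72, with a gap of 0.738 of the group's range. Igf2 in BDL day 21 replicate 5 was the highest of its group at 5.53 (0.789 of the range). Dlk1 was low in BDL day 3 replicate 3 at 4.39 (0.746 of the range) and high in sham day 7 replicate 3 at 4.93 (0.877 of the range).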

How the results depend on the processing

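No paired analysis was possible because the labels give no replicate numbers shared between groups. Afp at day 3 kept its direction in 14 of 14 settings (log2 fold change 0.39 to 1.01) and its call in 12. The count of called members at day 3, 1 of 5, became 0 with only the arrays of the 2 groups, and 0 with a filter of log2 6, under which Afp is not tested. With the 4 day 1 arrays as a term of the model the counts became 0 for sham day 1 against sham day 7, BDL day 3 against BDL day 1, BDL day 7 against BDL day 1 and BDL day 21 against BDL day 1, in place of 1, 1, 2 and 1. The cause was not tested. Leaving out 1 array in turn gave counts of 0 to 1 for BDL against sham at day 3, 0 to 2 for sham day 1 against sham day 7, 0 to 3 for BDL day 3 against BDL day 1, 0 to 2 for BDL day 7 against BDL day 1 and 0 to 1 for BDL day 21 against BDL day 1.

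Uncalled values changed sign as follows: with all 9 sham arrays as control, Peg3 to 0.18 at day 1 and -0.38 at day 7, and Igf2 to -0.09 at day 7 and -0.03 at day 21. Array weights gave -0.20 for Igf2 at day 1. Cyclic loess scaling, which moved the median of all genes by under 0.05, gave -0.06 for Peg3 at day 7 and 0.02 for Dlk1 at day 21. Without the 4 day 1 arrays Gpc3 was 0.05 at day 1, and with them as a term the effect at day 7 minus that at day 1 was 0.01 for Gpc3 and -0.02 for Igf2. Leaving out 1 array in turn also moved these uncalled values across 0. At day 1, Igf2 ranged from -0.15 to 0.13 and Dlk1 from -0.05 to 0.13. At day 3, Gpc3 ranged from -0.08 to 0.10 and Dlk1 from -0.46 to 0.01. At day 7, Igf2 ranged from -0.00 to 0.13 and Peg3 from -0.09 to 0.13. At day 21, Dlk1 ranged from -0.07 to 0.05 and Peg3 from -0.12 to 0.09. In BDL day 7 against BDL day 3, Dlk1 ranged from -0.07 to 0.06 and Igf2 from -0.01 to 0.12. In BDL day 21 against BDL day 7, the ranges were -0.08 to 0.13 for Gpc3, -0.02 to 0.12 for Igf2 and -0.11 to 0.03 for Peg3. Peg3 ranged from -0.01 to 0.41 in BDL day 3 against BDL day 1, Afp from -0.03 to 0.06 in BDL day 7 against BDL day 1, and Dlk1 from -0.02 to 0.16 in sham day 1 against sham day 7. In sham day 3 against sham day 7, Afp ranged from -0.37 to 0.24 and Dlk1 from -0.22 to 0.25.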

Other observations

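BDL day 3 replicate 5 held the highest value of its group for 4 of the 5 tested members, Afp at 6.22, Peg3 at 8.72, Gpc3 at 5.40 and Dlk1 at 4.73, and the lowest of the H19 row at 4.01. This was noticed after the values had been seen and was not tested. The lowest mean of its group for the albumin family, 10.83, was in the same array.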
